A study of Mus musculus with 15 samples.

Results

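The 6 long noncoding RNAs Meg3, Rian, Miat, Snhg11, Malat1 and Sox2ot were examined by granule cell stage, by cell type and by treatment in Drop-seq data of mouse cerebellum and medulloblastoma. They were chosen by name, and all 6 had a row among the 27803 genes of the tables. Drop-seq captures single cells in droplets with barcoded oligo-dT beads and counts unique molecular identifiers (UMIs), 1 for each captured RNA molecule. The 15 mice formed 3 groups of 5, and each mouse gave 1 library. The WT group was wild-type C57BL/6 cerebella at P7 (7 days after birth). The Vehicle and Vismodegib groups were medulloblastomas of Math1-Cre:SmoM2/EYFPloxP/loxP (M-Smo) mice on C57BL/6 at P15, after 3 daily injections from P12 to P14. Vismodegib mice received 75 mg per kg of vismodegib, an inhibitor of Smoothened (Smo), the membrane protein that passes on the Sonic hedgehog (SHH) signal, and Vehicle mice received the solvent mixture NMP:PEG. Both tumor groups carried the same alleles, in which Cre driven by a cloned Atoh1 promoter switched on a constitutively active Smo fused to a yellow fluorescent protein in cerebellar granule neuron progenitors (CGNPs). Droplets were made on a PDMS device for WT and on a glass one for tumors, whose cells were mixed with a spike-in of human HEK 293 cells. Age, genotype and device cannot be told apart from the group in any comparison of Vehicle with WT.

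Long noncoding RNAs are transcribed and mostly spliced like messenger RNAs but have no established protein product, and many are kept in the nucleus and vary more between cell types than messenger RNAs do. Meg3 and Rian are made from the maternally inherited copy of the imprinted Dlk1-Dio3 domain, and Meg3 has been described as a growth-restraining RNA that is low in many tumors. Miat (also called Gomafu) and Malat1 are nuclear RNAs, Miat largely of neurons and Malat1 of nearly every cell. Snhg11 hosts small nucleolar RNAs in its introns and is known from brain. Sox2ot is a long transcription unit that contains the stem cell gene Sox2 within its span. Granule neurons form from CGNPs, which divide under SHH, leave the cell cycle and then mature, and SHH-driven medulloblastoma starts from the same cells.

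In the GENCODE M21 annotation of GRCm38, Meg3 lies at chr12:109541001-109571726 on the plus strand with 11 transcripts, and Rian follows it on the same strand at chr12:109603940-109661716 with 20. Miat lies at chr5:112213228-112229395 on the minus strand, Malat1 as an unspliced gene of 6983 bases at chr19:5795690-5802672 on the minus strand, Snhg11 at chr2:158375638-158386145 on the plus strand and Sox2ot at chr3:34104270-34682619 on the plus strand. Sox2 lies inside Sox2ot on the same strand, and the microRNA genes Mir770 and Mir1906-1 and the small genes Gm27596 and Gm27300 overlap Meg3 on its own strand, so reads in these places could belong to either gene. Snhg11 carries a protein-coding label in this annotation. Since the beads carry oligo-dT, runs of A inside a transcript are shown first, as places where a bead can prime besides the tail. The 30 bases around the longest A run of the longest transcript are given 5′ to 3′ on the transcript's strand, with the run in capitals, at chr12:109545810-109545839 for Meg3, chr12:109652222-109652251 for Rian, chr19:5795979-5796008 for Malat1 and chr5:112229200-112229229 for Miat.
Meg3: caagaccAAAAAAAAAAAAAAAAcaaaaac
Rian: attgctcAAAAAAAAAAAAAAAccattgat
Malat1: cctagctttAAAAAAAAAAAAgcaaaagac
Miat: cagagcagatgccAAAAttagagacctctg
The run measured 16 bases in Meg3, 15 in Rian, 12 in Malat1 and 4 in Miat, against 8 in Snhg11 and 7 in Sox2ot. Where the reads of each gene began was not tested, so levels are compared here between cells for 1 gene, and not between genes, apart from 1 ratio of captured molecules for Meg3 and Rian.

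The promoters of Meg3 and Miat are shown because these 2 members differed between Vehicle and WT at every granule cell stage, in opposite directions. RefSeq (GRCm38.p6) gave 300 bases for 5 of the 6 members, from 250 before to 50 after the start. They are printed 5′ to 3′ on the gene's strand, chr12:109540746-109541045 on the plus strand for Meg3 and chr5:112228899-112229198 on the minus strand for Miat, with motif matches in capitals.
Meg3: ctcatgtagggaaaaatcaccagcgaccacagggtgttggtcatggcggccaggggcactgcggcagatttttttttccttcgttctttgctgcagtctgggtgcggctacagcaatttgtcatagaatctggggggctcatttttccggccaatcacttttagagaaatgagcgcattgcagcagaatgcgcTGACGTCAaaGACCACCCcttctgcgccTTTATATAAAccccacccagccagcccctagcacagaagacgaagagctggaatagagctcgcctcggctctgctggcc
Miat: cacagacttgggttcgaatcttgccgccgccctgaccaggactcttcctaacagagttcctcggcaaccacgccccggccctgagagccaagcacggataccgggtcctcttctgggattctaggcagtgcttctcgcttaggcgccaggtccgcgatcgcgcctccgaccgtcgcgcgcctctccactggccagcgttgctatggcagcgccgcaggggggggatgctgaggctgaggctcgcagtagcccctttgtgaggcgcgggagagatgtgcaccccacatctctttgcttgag
Counted from 1 at the 5′ end, the Meg3 promoter held the cAMP response element TGACGTCA at 194, the Gli motif core GACCACCC at 204 and the TATA box letters TATAAA at 222 on the opposite strand and at 226, the last 2 overlapping. Of the 32851 promoters of this length, 1.79% held TGACGTCA, 0.807% GACCACCC and 13.6% TATAAA on either strand. The E-box CAGCTG, present in 16.3% of promoters, was found in those of Snhg11 and Malat1, and CAGATG, present in 17.2%, in that of Rian. No motif of the 5 was found in the Miat promoter, which held 25 CpG sites and 64.3% G and C. This window lies inside the GENCODE span of Miat, which begins at 112229395 on its strand, so it describes the RefSeq start alone. A second RefSeq start of Meg3, not printed, also held GACCACCC.

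After filtering, 7224 WT cells, 18293 Vehicle cells and 12429 Vismodegib cells remained, from 805 to 8103 per animal, with median UMIs per cell from 1082.5 to 2597 over the animals. No pair of libraries shared more than 13 cell barcodes. Cells were grouped by clusters and named from marker genes, with the 6 members kept out of the clustering. CGNP-like cells comprised Node A-like (cycling), Node B-like (SHH-responsive, Atoh1 and Gli1), Node C-like (early differentiating, Cntn2 and Nhlh1) and Node D-like (late differentiating, Grin2b and Rbfox3) cells, numbered 4410 in WT, 15118 in Vehicle and 10183 in Vismodegib. All 16 Node A markers stood above the mean of the other classes in each group, and 12, 13 and 14 of the 16 Node D markers did so in WT, Vehicle and Vismodegib, so the Node D name rests on most but not all of its markers. Of the 3 tumor clusters named Node D-like for the markers among their leading genes, cluster 10 (416 Vehicle and 1216 Vismodegib cells) scored slightly higher for the neuron-like list (mean log2 fold of its markers 1.12) than for the Node D list (1.05). Npy was at 0 in GABAergic interneuron-like cells and Nrgn at 0 in unipolar brush cell-like cells. The libraries Vehicle 1 and 3 and Vismodegib 1, 2 and 3 were spread differently over some clusters than the other 5 tumors, a division seen in the data and not named in the labels. It follows the order of the serial numbers of the tumor libraries, except for Vehicle 2. In Node D-like cells, one cluster took 384 Vehicle and 1104 Vismodegib cells from those 5 libraries but 32 and 112 from the others, so ratios within each set are given beside the treatment results over CGNP-like cells and for some stages.

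Levels are UMIs per 1000000 UMIs of the class in an animal (CPM), for classes of at least 10 cells in that animal, with mean ± SD over animals. Droplets also hold free RNA from broken cells. Microglia-like cells, which should lack most of these RNAs, are given as the reference for that background, and their median depth per animal, 1077 to 3091 UMIs per cell, overlapped that of Node D-like cells, 819 to 2217. This reference rests on few molecules. In WT it held 26 UMIs of Meg3, 4 of Miat, 3 of Snhg11 and 2 of Rian over all animals. The same counts were 17, 55, 4 and 0 in Vehicle and 53, 71, 3 and 3 in Vismodegib.

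Along the granule cell stages, Meg3, Rian, Snhg11 and Malat1 were highest by CPM in the last stage, whereas Miat peaked 1 stage earlier. In WT, Node A-like cells held 89.0, 78.2, 90.1, 109 and 117 CPM of Meg3 in animals 1 to 5, and Node D-like cells held 1338, 1129, 1048, 1782 and 1799. In Vehicle tumors the same stages held 23.4, 8.28, 9.35, 13.1 and 14.1 CPM and then 1122, 687, 833, 1064 and 834. In Vismodegib tumors they held 26.3, 21.7, 39.8, 45.2 and 31.3 CPM and then 1406, 1202, 1139, 977 and 1125. Every Node D-like value lay far above every Node A-like value of its group, and all tumors lay below all WT animals at Node A. Meg3 was 14.3-fold higher in Node D-like than in Node A-like cells in WT, 60.1-fold in Vehicle and 31.6-fold in Vismodegib, or 3.84 ± 0.10, 5.91 ± 0.13 and 4.98 ± 0.10 on the log2 scale (± SE, 5 animals each). Most of the difference lay after the Node B stage, with rises of 1.08, 2.28 and 1.56 on the log2 scale from Node B to Node C and of 2.07, 3.18 and 3.44 from Node C to Node D.

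**Figure D1:**
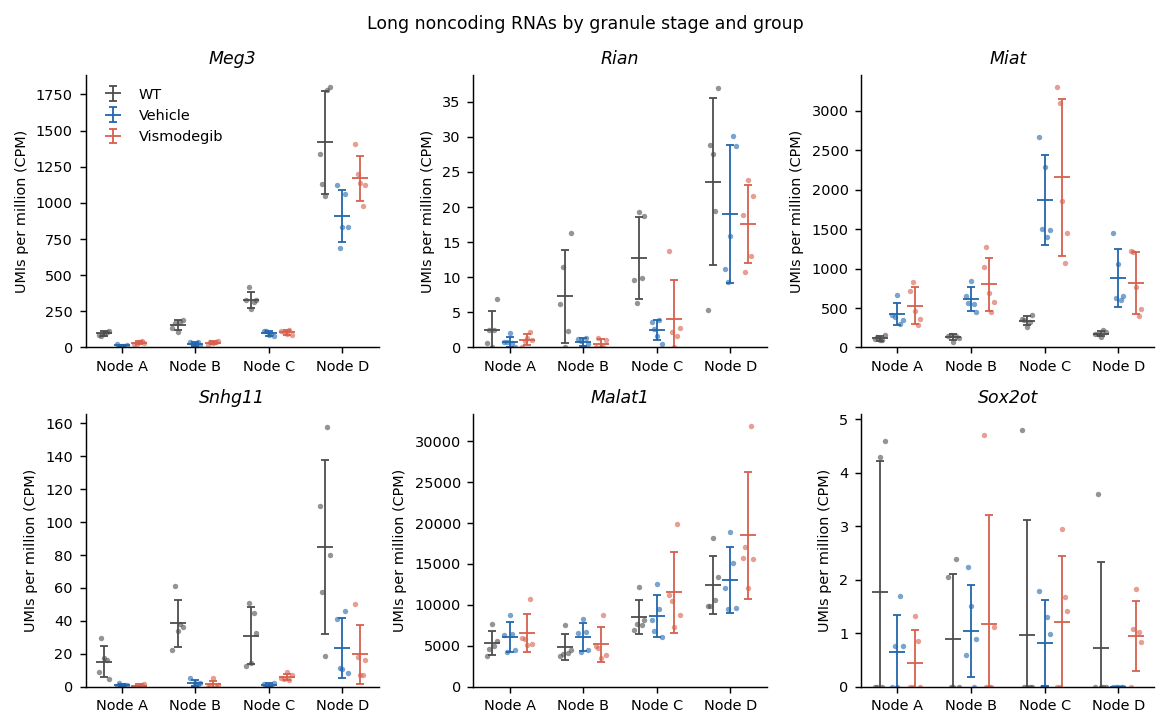
Levels of the 6 members in the 4 granule cell stages, one panel per gene with its own linear axis in CPM, 1 point per animal, and mean ± SD of 5 animals as bars for WT, Vehicle and Vismodegib. Meg3 lies between 687 and 1799 CPM in Node D-like cells of all 15 animals, while Miat is highest in Node C-like cells.

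Miat rose from Node B to Node C by 1.37 ± 0.13 in WT, 1.63 ± 0.08 in Vehicle and 1.41 ± 0.06 in Vismodegib on the log2 scale, higher in 5 of 5 animals each time. It then fell by 0.94 ± 0.13, 1.14 ± 0.09 and 1.43 ± 0.06 from Node C to Node D, lower in 5 of 5 animals each time. In Vehicle tumors the Node C-like values were 2665, 1505, 2291, 1401 and 1489 CPM, and the Node D-like values were 1453, 631, 1052, 605 and 646. Each animal was lower at Node D, although the value of Vehicle 1 there exceeded that of Vehicle 4 at Node C. Miat was thus highest in the stage marked by Cntn2 and Nhlh1, and not in the most mature one.

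Malat1 had its lowest stage at Node B in WT and Vismodegib animals. From Node A to Node B it fell by 0.17 ± 0.05 in WT and by 0.43 ± 0.04 in Vismodegib on the log2 scale. From Node A to Node D it rose, as a share of UMIs, by 1.15, 1.02 and 1.41 in WT, Vehicle and Vismodegib. WT cells were deeper at Node A, with a median of 3158 UMIs per cell against 1079 at Node D. Per cell, WT Malat1 was lower at Node D, with 14974 UMIs in 1064 cells against 15928 in 865 at Node A. In tumors it was higher per cell at Node D. Vehicle gave 27663 UMIs in 1513 cells against 73929 in 4425, and Vismodegib 211272 in 5229 against 48965 in 1737. The WT fall from Node A to Node B was no longer called without WT 2 (adjusted p = 0.0639), WT 4 (0.191) or WT 5 (0.119) in edgeR's quasi-likelihood test, nor with cells of at least 1000 UMIs (0.0647) or with sums thinned to equal depth (0.265). Snhg11 was rare in the first 3 stages of the tumors, with 17, 25 and 6 UMIs over all Vehicle animals in Node A, B and C and 48 in Node D. Its difference from Node A to Node D was 2.73 ± 0.28 in WT, 3.90 ± 0.49 in Vehicle and 3.88 ± 0.48 in Vismodegib. Few tumor Node D-like cells held a Snhg11 UMI, 1.61% in Vehicle and 1.40% in Vismodegib, against 6.42% in WT. The shares of microglia-like cells were 2.57%, 0.944% and 1.79% in the same order. With all cells thinned to the same number of UMIs, Node D-like shares were 0.874%, 0.424% and 3.25%, and microglia-like shares 1.28%, 0.444% and 0.893%. The tumor shares thus did not stand clear of the microglia-like ones, which rest on 4 Vehicle and 3 Vismodegib UMIs. The part of free RNA in them was not tested. In Vehicle 4 the 23 UMIs came from 1.65% of 242 cells, and in Vismodegib 1 the 24 UMIs came from 0.626% of 479 cells. Rian gave 7, 8 and 10 UMIs in Node A, B and C of Vehicle tumors and 45 in Node D, a difference of 4.93 ± 0.54 from Node A to Node D, and 3.49 ± 0.41 in Vismodegib. Without Vismodegib 1 the Vismodegib rise of Rian from Node B to Node C went from 2.26 to 1.30 (adjusted p = 0.335), and without Vismodegib 4 its adjusted p was 0.0696, as that of Snhg11 was 0.0567. With cells of at least 1000 UMIs the adjusted p of Snhg11 was 0.106. Rian was not tested between WT stages, nor Sox2ot in any group, because too few UMIs remained after the filter on low counts.

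Of the members tested between Node A and Node D, 4 of 4 were higher in Node D in WT, 5 of 5 in Vehicle and 5 of 5 in Vismodegib in edgeR's quasi-likelihood test (adjusted p under 0.05). The WT rise of Miat, 0.67 on the log2 scale, was 0.46 with sums thinned to equal depth and was then not called (adjusted p = 0.0973). Fewer cells held a Miat UMI at Node D than at Node A in WT (18.8% against 28.2%) and Vismodegib (58.3% against 67.1%). In Vehicle more did (58.0% against 55.4%). With each cell thinned to the same number of UMIs, this share was higher at Node D in each group. It was then 8.44%, 31.8% and 30.1%, against 5.80%, 17.2% and 23.3% at Node A, in WT, Vehicle and Vismodegib. Among all genes tested, 56.4%, 65.3% and 76% differed between these stages. From Node A to Node B, 3 of 4 members, 1 of 5 and 2 of 5 differed in WT, Vehicle and Vismodegib, beside 9.26%, 34.9% and 15.4% of all genes. The Vehicle call was Miat, higher by 0.43 at Node B, which became 0.13 with finer clusters (resolution 1.2, adjusted p = 0.303). From Node B to Node C it was 3 of 4, 3 of 5 and 5 of 5, beside 43.9%, 53.1% and 55.1%, and from Node C to Node D 4 of 4, 5 of 5 and 5 of 5, beside 20.2%, 29.3% and 38.9%. The stages were drawn from the same cells by genes that vary along with the members, so these counts describe the stages and are no independent test of them.

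The rise from Node A to Node D was itself compared between groups with an interaction term. Meg3 rose by 2.19 ± 0.17 more on the log2 scale in Vehicle than in WT (adjusted p = 1.14e-16, edgeR's quasi-likelihood test), the 1 member of 5 called, where 10.6% of all genes were called. The differences for Rian (2.00, adjusted p = 0.185), Snhg11 (1.06, adjusted p = 0.266), Miat (0.35, adjusted p = 0.284) and Malat1 (-0.04, adjusted p = 0.861) did not pass. Between Vismodegib and Vehicle, 2 of 5 members were called, where 3.35% of all genes were. The Meg3 rise was smaller by 0.94 ± 0.19 (adjusted p = 8.50e-04) and the Malat1 rise larger by 0.42 ± 0.08 (adjusted p = 1.81e-04) under vismodegib. Without Vismodegib 4 the adjusted p for Meg3 was 0.0716, and DESeq2 gave 0.0576. Miat differed by -0.38 (adjusted p = 0.0791), and it passed without Vehicle 2 (adjusted p = 0.0271), Vehicle 3 (0.0202), Vehicle 5 (0.0446) or Vismodegib 1 (0.0418). These Meg3 differences rest on the Node A level, and in CPM Node A-like cells held no more Meg3 than microglia-like cells did: 96.8 ± 16 against 136 ± 66.4 CPM in WT, 13.6 ± 5.99 against 32.3 ± 15.2 in Vehicle and 32.8 ± 9.62 against 63.2 ± 40.6 in Vismodegib. The Node A level was above the microglia-like level in 1 of 4, 0 of 4 and 1 of 5 animals, and the part of free RNA in it was not tested. In WT this reference was not matched in depth, with median UMIs per cell of 2496 to 3633 in Node A-like and 1077 to 2157.5 in microglia-like cells. Without thinning, a Meg3 UMI was found in 24.2% of Node A-like against 22.7% of microglia-like cells in WT. These shares were 3.87% against 6.51% in Vehicle and 12.3% against 10.9% in Vismodegib.

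As shares of cells with at least 1 UMI, Meg3 was found in 55.3% of WT, 43.8% of Vehicle and 52.8% of Vismodegib Node D-like cells, means over 5 animals. With each cell thinned to 500 UMIs these were 36.5%, 26.5% and 33.3%, against 9.76%, 1.04% and 2.53% in thinned microglia-like cells and 5.37%, 0.741% and 1.73% in thinned Node A-like cells. Thinned Node C-like cells had a Miat UMI in 15.7% of WT, 54.8% of Vehicle and 55.7% of Vismodegib cells. Without thinning, Miat was found in 32.1%, 82.5% and 79.7% of Node C-like cells and in 4.06%, 15.8% and 14% of microglia-like cells. Both genes thus stood well above the microglia-like level in these stages, at overlapping depths.

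In Vehicle tumors compared with WT cerebella, Miat was higher and Meg3 was lower in the CGNP-like cells, and each did so at all 4 stages. Snhg11 and Rian were lower in the CGNP-like sum, and Malat1 did not pass the test in any class. Over CGNP-like cells, 4 of 5 members tested differed (1 higher, 3 lower), beside 43.6% of all 12395 genes. By stage it was 2 of 3 members at Node A beside 36% of genes, 3 of 4 at Node B beside 32.4%, 2 of 3 at Node C beside 28.9% and 3 of 5 at Node D beside 28.1%. With so many genes called, these member counts do not set the members apart.

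Over CGNP-like cells, WT animals held 174, 199, 132, 189 and 203 CPM of Miat and Vehicle animals 914, 668, 1017, 600.4 and 566. Every Vehicle animal lay well above every WT animal. Miat was 3.91-fold higher in Vehicle, 1.97 ± 0.18 on the log2 scale (± SE, adjusted p = 8.89e-07). At Node C the means were 341 ± 54.6 and 1870 ± 572 CPM, a 4.89-fold difference, 2.29 ± 0.20 on the log2 scale (adjusted p = 4.20e-08), and at Node A, B and D it was 1.77 ± 0.22, 2.08 ± 0.21 and 2.15 ± 0.23. The tumor and WT values did not overlap at any stage. Miat in microglia-like cells, the background reference, differed in the same direction, with 17.7 ± 20.5 CPM in WT and 128 ± 101 in Vehicle (4 animals each), below each stage in 4 of 4 animals of both groups. Both sets of Vehicle libraries lay above WT, with Vehicle 1 and 3 the highest 2 at every stage.

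Meg3 over CGNP-like cells was 299, 413, 273, 487 and 435 CPM in WT and 118, 74.3, 107, 152 and 58.0 in Vehicle. All WT animals lay above all Vehicle animals. The fall was 2.01 ± 0.24 on the log2 scale over CGNP-like cells (adjusted p = 1.30e-05), and the differences at Node A, B, C and D were -2.98 ± 0.25, -2.97 ± 0.30, -1.93 ± 0.17 and -0.77 ± 0.18 (adjusted p = 7.81e-08, 4.94e-07, 4.20e-08 and 0.00214). The difference was thus smallest in the stage where Meg3 was highest, and there the groups overlapped, since Vehicle 1 (1122 CPM) and Vehicle 4 (1064 CPM) reached the range of WT. The microglia-like level, 136 CPM in WT and 32.3 in Vehicle, differed in the same direction, and the part of free RNA in the Node A and Node B differences was not tested. A CGNP-like sum mixes its stages, so fewer cells of a late stage and less Meg3 per cell cannot be told apart in it. With the 4 stages weighted equally, Meg3 averaged 501 ± 99.7 CPM in WT and 261 ± 49.7 in Vehicle (exact permutation test, 2-sided p = 0.00794, the smallest that 5 against 5 allows, 0.0317 adjusted over 12 tests).

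Rian, the downstream RNA of the same domain, was 3.97, 11.1, 8.89, 7.62 and 16.1 CPM in WT and 2.07, 1.70, 2.63, 4.72 and 1.46 in Vehicle over CGNP-like cells. These values rest on 67 and 70 UMIs in all, and Vehicle 4 lay above WT 1. The difference was -1.98 ± 0.44 on the log2 scale (adjusted p = 0.00184), but at Node D it was -0.16 ± 0.46 (adjusted p = 0.832, 95% interval -1.10 to 0.78). The microglia-like level of Rian was 9.38 CPM in WT, on 2 UMIs, and 0 in Vehicle. WT cells at Node A, B and C (2.501, 7.26 and 12.8 CPM) lay above the WT microglia-like level in 1, 1 and 2 of 4 animals. The Vehicle means at these stages, where Rian was not tested between the groups, were 0.811, 0.787 and 2.45 CPM. With the 4 stages weighted equally, Rian averaged 11.5 ± 5.33 CPM in WT and 5.77 ± 2.36 in Vehicle (exact permutation test, 2-sided p = 0.0397, 0.0952 adjusted over 12 tests). The part of free RNA in the Rian difference was not tested. Over CGNP-like cells there were 47.6 Meg3 UMIs for each Rian UMI in WT, 40.2 in Vehicle and 60.4 in Vismodegib, a ratio of captured molecules that depends on how each RNA is primed.

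Snhg11 was 24.5, 47.5, 21.6, 54.2 and 29.3 CPM in WT and 5.68, 1.70, 1.84, 6.06 and 2.12 in Vehicle. Every WT animal lay well above every Vehicle animal. The difference was -3.52 ± 0.40 on the log2 scale over CGNP-like cells (adjusted p = 7.12e-06), -4.18 ± 0.50 at Node B (3.89e-06) and -2.16 ± 0.42 at Node D (3.54e-04). The microglia-like level of Snhg11 went from 13.97 CPM in WT (3 UMIs) to 8.31 in Vehicle (4 UMIs). In Vehicle it exceeded the means at Node A, B and C (1.07, 2.30 and 0.848 CPM), and the part of free RNA in the stage differences was not tested. Malat1 averaged 7106 ± 1913 CPM in WT and 7058 ± 2194 in Vehicle, a difference of -0.12 ± 0.23 (adjusted p = 0.706, 95% interval -0.61 to 0.37). Sox2ot gave 9 UMIs in WT and 26 in Vehicle over all CGNP-like cells, under 2 CPM in each animal, and was not tested.

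After vismodegib, Meg3 and Rian were higher in the CGNP-like cells of the tumors, and the share of late-stage cells was larger. This comparison and the preceding one share the 5 Vehicle animals, so a low Vehicle value enters both. Of 5 members tested over CGNP-like cells, 2 were higher and none lower, beside 13.8% of 12261 genes. At Node A 1 of 3 members was called beside 2.24% of genes. At Node B, C and D none of the 3 tested members was called by edgeR's quasi-likelihood test or by DESeq2, beside 4.09%, 0.351% and 0.214% of genes, and 0, 0 and 2 had an unadjusted p under 0.05.

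Meg3 over CGNP-like cells was 118, 74.3, 107, 152 and 58.0 CPM in Vehicle and 379, 374, 342, 499.7 and 598 in Vismodegib. Every treated tumor lay well above every Vehicle tumor, in a range that overlapped that of WT. Meg3 was 4.36-fold higher, 2.12 ± 0.26 on the log2 scale (adjusted p = 2.07e-04), and 3.25-fold and 5.79-fold higher by means within the libraries set apart above and within the others. Within stages the values were closer. At Node D, Vehicle averaged 908 ± 180.3 CPM and Vismodegib 1169.8 ± 156, a difference of 0.38 ± 0.15 on the log2 scale (unadjusted p = 0.0249, adjusted p = 0.554), with overlapping groups. At Node C the difference was 0.13 ± 0.17 (95% interval -0.24 to 0.50, adjusted p = 0.897), and at Node B 0.65 ± 0.34 (adjusted p = 0.361). The Node B-like cells of the groups came from different clusters, with 4160 Vehicle and 128 Vismodegib cells in cluster 1, led by Hes1 and Atoh1, and 1714 and 1292 in cluster 5, led by Ung and Mcm genes. At Node A it was 1.32 ± 0.29 (adjusted p = 0.0246), at 13.6 and 32.8 CPM, below the microglia-like level of each group, and the adjusted p lay between 0.0509 and 0.0929 without Vehicle 2, 3, 4 or 5 or Vismodegib 3 or 4, each left out alone.

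Node D-like cells made up 12% ± 4.36 of CGNP-like cells in Vehicle and 46.9% ± 14.8 in Vismodegib, and Node B-like cells 38.4% ± 5.27 and 15.9% ± 7.31. With the 4 stages weighted equally, Meg3 averaged 261 ± 49.7 CPM in Vehicle and 335 ± 35.4 in Vismodegib, a ratio of 1.29 (exact permutation test, 2-sided p = 0.0476, 0.0952 adjusted over 12 tests). The equal weighting was added after the CGNP-like result was known. Within Node D-like cells, Meg3 also varied between clusters: in cluster 7 it averaged 2660 ± 1613 CPM in Vehicle and 2258 ± 887 in Vismodegib, and in cluster 4 it averaged 711 ± 129 and 756 ± 278. In cluster 10 it averaged 722 ± 93.0 in 3 Vehicle and 1034 ± 217 in 5 Vismodegib animals. The treated and untreated means differed by less than their SDs in clusters 4 and 7 and by more in cluster 10, and cluster 7 lay above the others in both groups. Clusters 4, 7 and 10 held 980, 117 and 416 Vehicle cells and 2131, 1882 and 1216 Vismodegib cells, and most of cluster 7 came from Vismodegib 4 (830 of its 2089 Node D-like cells) and Vismodegib 5 (851 of 1571). In Vismodegib 1, 2 and 3 it held 58 of 479, 65 of 838 and 78 of 252 cells, and in Vehicle 15 of 286, 15 of 302, 17 of 229, 37 of 242 and 33 of 454. The shares of Vismodegib 1 and 2 lay within the Vehicle range, and the part of cluster make-up in the Node D difference of 0.38 was not tested.

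**Figure D2:**
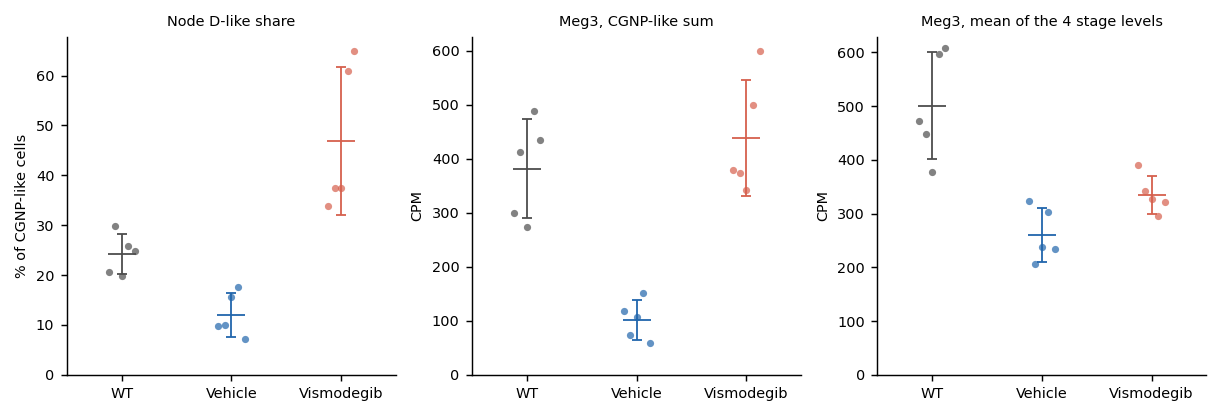
Share of CGNP-like cells that are Node D-like (percent, left), Meg3 over all CGNP-like cells (CPM, middle) and Meg3 averaged over the 4 stages with equal weight (CPM, right), 1 point per animal with mean ± SD of 5 animals. The Vehicle and Vismodegib means are 102 and 439 CPM in the middle panel but 261 and 335 CPM in the right panel, where the groups overlap.

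Rian over CGNP-like cells was 2.07, 1.70, 2.63, 4.72 and 1.46 CPM in Vehicle and 7.18, 3.98, 6.89, 7.06 and 11.7 in Vismodegib. Vismodegib 2 lay below Vehicle 4, and the other treated tumors lay above every Vehicle tumor. Rian was 3.08-fold higher, 1.62 ± 0.39 on the log2 scale (adjusted p = 0.0137), and 1.37 without Vismodegib 5 (adjusted p = 0.0510). With sums thinned to equal depth too few Rian UMIs remained for a test. Within the library sets the ratios were 2.56 and 3.58. Node D-like cells held 19 ± 9.81 and 17.6 ± 5.56 CPM, with a treated over untreated ratio of 1.32 within the libraries set apart above and of 0.759 within the others, and the mean over equally weighted stages was 5.77 in Vehicle and 5.82 in Vismodegib. Both imprinted RNAs thus stood higher in the CGNP-like sum, while their Node D values overlapped between the groups.

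**Figure D3:**
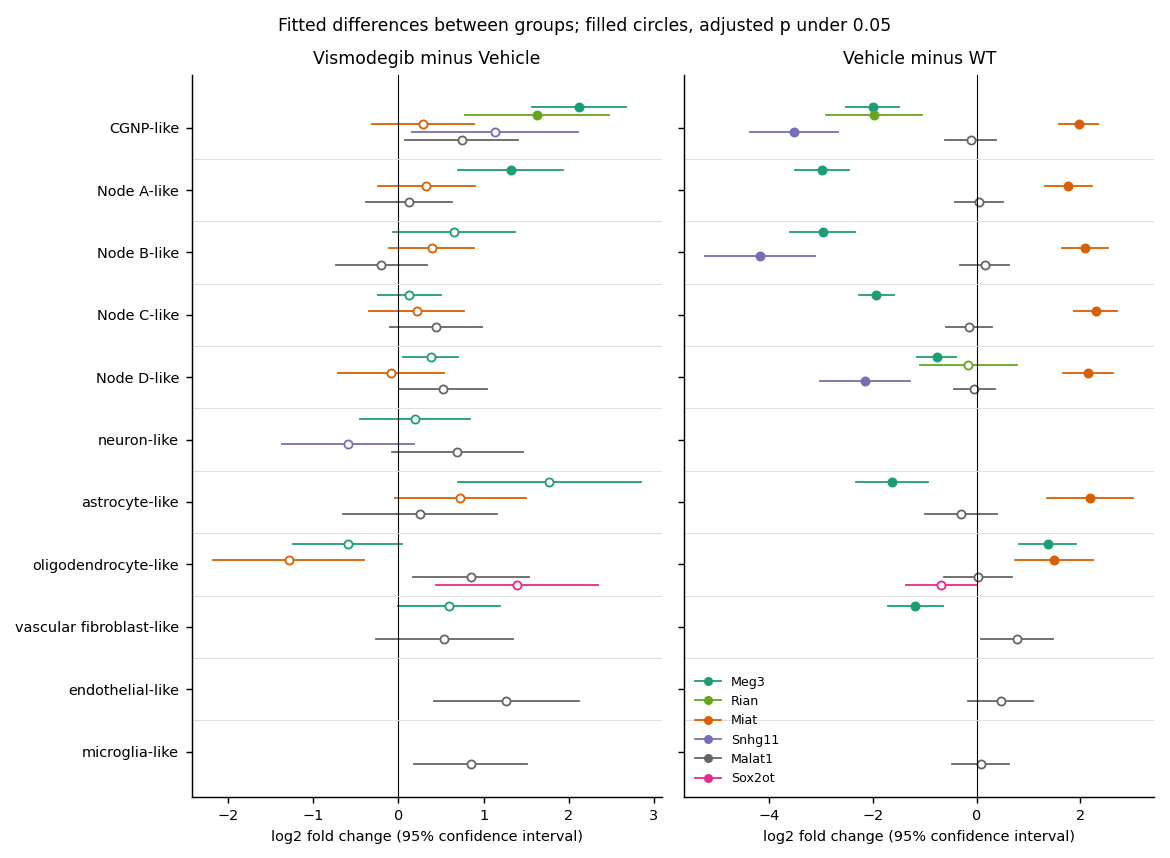
Fitted log2 differences of each member (horizontal axis, with 95% intervals) for Vismodegib minus Vehicle and for Vehicle minus WT, over CGNP-like cells, in each stage and in other classes, with filled circles for adjusted p under 0.05. Miat lies to the right of 0 at every stage in Vehicle minus WT (1.77 to 2.29), and Meg3 in Vismodegib minus Vehicle goes from 2.12 over CGNP-like cells to 0.13 at Node C.

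Miat did not pass the test between the treatments over CGNP-like cells or at any stage. Over CGNP-like cells it was 914, 668, 1017, 600.4 and 566 CPM in Vehicle and 1388, 1359, 822, 467 and 564 in Vismodegib, a difference of 0.29 ± 0.28 (adjusted p = 0.565, 95% interval -0.31 to 0.89). Vismodegib 1 and 2 were the highest and Vismodegib 4 the lowest of all 10 tumors. The treated over untreated ratio of means was 1.23 within the libraries set apart above and 0.843 within the others, while the former exceeded the latter in both groups. At Node A, B and C the ratios were 1.25, 1.33 and 1.11 within the former and 0.942, 0.979 and 0.861 within the latter, and at Node D they were 0.852 and 0.705. At Node C Vismodegib held 3298, 3103, 1860.1, 1067 and 1456 CPM, and at Node D the difference was -0.09 ± 0.30.

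Snhg11 was 5.68, 1.70, 1.84, 6.06 and 2.12 CPM in Vehicle and 13.3, 6.13, 4.43, 4.26 and 9.47 in Vismodegib over CGNP-like cells, 96 and 157 UMIs in all. The groups overlapped in the range from 4.26 to 6.06 CPM. The difference was 1.13 ± 0.45 (adjusted p = 0.125), with ratios of 2.12 and 2.08 within the library sets, and the mean over equally weighted stages was 6.94 CPM in Vehicle and 6.96 in Vismodegib. The stage means did not all move in the same direction. At Node C, where Snhg11 gave 6 and 17 UMIs and was not tested, it was 1.79, 0, 0, 0 and 2.45 CPM in Vehicle and 5.50, 4.44, 8.83, 4.19 and 7.07 in Vismodegib, while the Node D means were 23.6 and 19.8 CPM. The microglia-like level of Snhg11 was 8.31 CPM in Vehicle and 7.04 in Vismodegib, above the Node C means of 0.848 and 6.005. The part of free RNA in the Node C values was not tested. Malat1 was 7116, 5036, 10183, 8015 and 4939.7 CPM in Vehicle and 9146, 9433, 7028, 21962 and 10680.4 in Vismodegib. Vismodegib 4 stood far above every other tumor, and the other 9 overlapped. The difference was 0.74 ± 0.31 (adjusted p = 0.140), with a ratio of 0.987 within the libraries set apart above and of 2.72 within the others, which include Vismodegib 4. At Node A, B, C and D these ratios were 0.749, 0.593, 0.936 and 0.966 against 1.57, 1.23, 1.92 and 2.08, on opposite sides of 1 at each stage. Sox2ot gave 26 and 19 UMIs and was not tested.

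**Figure D4:**
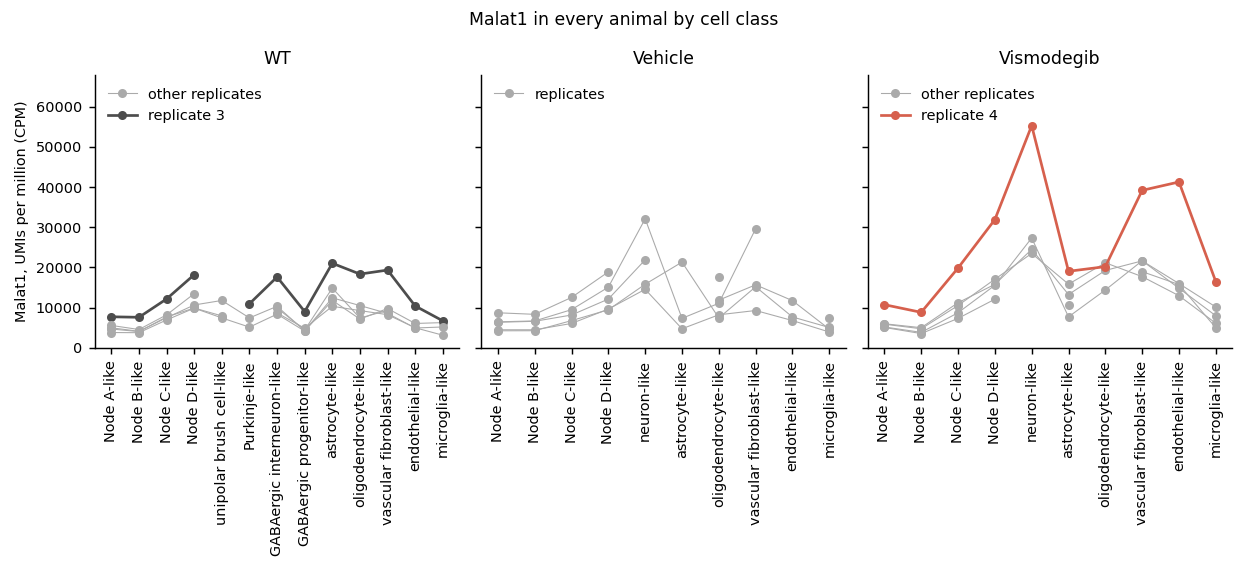
Malat1 level in each cell class (CPM, vertical axis), 1 line per animal, for WT, Vehicle and Vismodegib, with WT 3 and Vismodegib 4 drawn bold. The bold lines lie on top in 12 of 12 classes for WT 3 and in 9 of 10 for Vismodegib 4.

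Malat1 differed between animals across all their classes together. WT 3 held 10296 CPM over CGNP-like cells, against 5184 to 7071 in the other WT animals, and it was highest in 12 of 12 classes present. Vismodegib 4 held 31901 CPM in Node D-like cells, against 12085 to 17067 in the other treated tumors, and was highest in 9 of 10 classes. Vehicle 3 was highest in 5 of the 5 classes in which it had at least 10 cells. Whether the levels of these 3 libraries reflect the animals or their preparation was not tested.

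Outside the CGNP-like cells, Meg3 was highest in mature neuron classes. The neuron-like cells of the tumors were a cluster of 304 cells led by Gabra6, Cbln3 and Vsnl1. Whether they belong to the granule lineage was not tested. In WT, Purkinje-like cells, the output neurons of the cerebellar cortex, held 5530.4, 5155 and 7951 CPM in animals 1, 3 and 4, and unipolar brush cell-like cells, glutamatergic interneurons of the granular layer, held 5009, 9127 and 5130.5 in animals 1, 2 and 4. In the tumors, neuron-like cells held 8884, 5056, 5732 and 5901 CPM in Vehicle 1, 2, 4 and 5 and 4561, 10781, 5469.6 and 7074 in the Vismodegib animals of the same numbers. These 4 groups of values overlapped throughout, and each lay above every Node D-like value. In WT the order continued with Node D-like (1419 ± 355 CPM), interneuron-like (1231 ± 641), vascular fibroblast-like (739 ± 139.9), Node C-like (331 ± 55.4), endothelial-like (324 ± 148) and astrocyte-like cells (304 ± 101), the last 3 not separated. Purkinje-like exceeded Node D-like cells in 3 of 3 animals, and fibroblast-like exceeded Node C-like cells in 5 of 5. Node D-like exceeded interneuron-like cells in 4 of 5, but their SDs overlapped, and unipolar brush cell-like exceeded Purkinje-like cells in 0 of 2, so these neighbours were not separated, and neither were interneuron-like and fibroblast-like cells (higher in 3 of 5). Node B-like (156 ± 35.2), GABAergic progenitor-like (145 ± 44.9), oligodendrocyte-like (144 ± 44.7), microglia-like (136 ± 66.4) and Node A-like cells (96.8 ± 16) came last, and neighbours in this order overlapped in their SDs. In tumors neuron-like exceeded Node D-like cells in 4 of 4 animals of each group, followed by oligodendrocyte-like cells in Vehicle (403 ± 125) and by fibroblast-like cells in Vismodegib (432 ± 145).

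Snhg11 was concentrated in Purkinje-like cells, at 2943, 2195 and 3004 CPM in WT 1, 3 and 4. A Snhg11 UMI was found in 83.1% of these cells, and in 58.6% after thinning to 500 UMIs, against 1.79% and 0.893% of WT microglia-like cells (median depths per animal 2815.5 to 6281 and 1077 to 2157.5 UMIs). Neuron-like cells of the tumors followed with 1142, 942, 703 and 1616 CPM in Vehicle and 134, 1135, 408 and 1018 in Vismodegib. A Snhg11 UMI was found in 20.6% and 14.5% of these cells (16.1% and 10.5% after thinning), so most neuron-like cells had none, unlike Purkinje-like cells. Of 3 animals with at least 10 unipolar brush cell-like cells, WT 2 held 1637 CPM, from 15.4% of 13 cells, and the others none. WT 5, with 9 such cells, held 4 UMIs (292 CPM). This class thus had no common level. Fibroblast-like cells held 122 ± 74.6, 194 ± 72.3 and 204 ± 144 CPM in WT, Vehicle and Vismodegib, interneuron-like cells 118 ± 68.7 and microglia-like cells 14 ± 27.9 in WT. Rian was also highest in Purkinje-like cells by CPM, at 44.4, 137 and 112 CPM on 31 UMIs, and reached 48.1 ± 6.43 and 65.9 ± 48.6 CPM in neuron-like cells of Vehicle and Vismodegib. A Rian UMI was found in 28% of Purkinje-like cells, but in 0% after thinning to 500 UMIs. The highest WT share after thinning was 2.40%, in endothelial-like cells, so this rank did not hold at equal depth. Miat followed another order. Its highest class was Node C-like in each group, before interneuron-like cells in WT (276 ± 48.4 CPM, below Node C in 5 of 5 animals), whereas Purkinje-like cells held 52.5, 19.6 and 60.4 CPM and neuron-like cells 136 ± 110.2 in Vehicle. Unipolar brush cell-like cells held 167 ± 60.1 CPM of Miat, close to the 177 ± 33.7 of Node D-like cells. Purkinje-like cells and tumor neuron-like cells, which were high for Meg3 and Snhg11, thus had mean Miat levels below those of the Node D-like cells of their group.

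Malat1 was present in every class, from 4806 ± 1583 CPM at Node B to 14088 ± 4212 in astrocyte-like cells in WT. In the tumors it was highest in neuron-like cells, at 21887, 15812, 32094 and 14548 CPM in Vehicle and 24482, 23478, 55280.4 and 27318 in Vismodegib, whose ranges overlapped. Sox2ot was highest in oligodendrocyte-like cells of each group. Oligodendrocyte-like cells, the myelin-forming lineage, held 164, 166, 249, 181 and 209 CPM in WT, 258, 57.7, 120.1, 101 and 96.5 in Vehicle and 566, 294, 92.7 and 319.9 in Vismodegib 1, 2, 4 and 5. WT animals were close together, whereas Vehicle 1 and Vismodegib 1 stood above the rest of their groups. GABAergic progenitor-like cells of WT held 69.7 ± 33.4 CPM and astrocyte-like cells 17.7 ± 10.7, 34.1 ± 14.9 and 29.6 ± 21.7 in WT, Vehicle and Vismodegib. No Sox2ot UMI was found in microglia-like or endothelial-like cells of any group, nor in Node D-like cells of Vehicle, where 0 of 2164419 UMIs allows up to 1.39 CPM. Sox2, the gene inside its span, averaged 309 ± 102 CPM in astrocyte-like, 289 ± 32.4 in oligodendrocyte-like and 261 ± 56.5 in progenitor-like cells of WT, classes that overlapped for Sox2 while oligodendrocyte-like cells stood apart for Sox2ot.

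**Figure D5:**
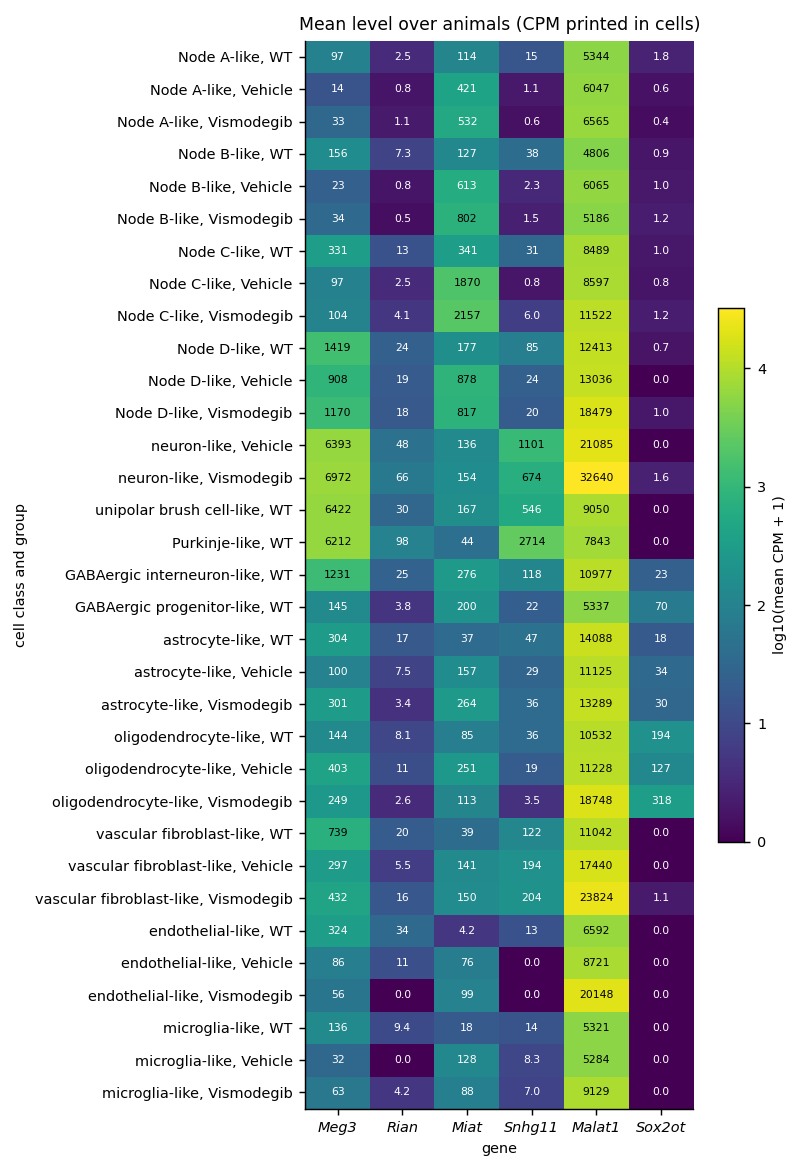
Mean level over animals of each member (columns) in each cell class and group (lines), with CPM printed and log10(mean CPM + 1) as colour. Colours are to be compared within a gene's column only. Meg3 is highest in unipolar brush cell-like, Purkinje-like and neuron-like cells, Snhg11 in Purkinje-like, Miat in Node C-like and Sox2ot in oligodendrocyte-like cells.

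Between Vehicle and WT, Meg3 in oligodendrocyte-like cells went the other way from Meg3 in the granule lineage. It was 159.6, 90.6, 143, 117 and 209 CPM in WT and 404, 499.8, 552, 283 and 276 in Vehicle, with no overlap, 1.37 ± 0.27 higher on the log2 scale (adjusted p = 5.73e-04). Miat rose there too, by 1.49 ± 0.36 (adjusted p = 0.00356), from 84.9 ± 37.3 to 251 ± 123 CPM, so 2 of 4 members tested were called, both higher, beside 26.9% of genes. The microglia-like level of Meg3 went the other way (136 to 32.3 CPM), whereas that of Miat rose by more than the oligodendrocyte-like level in ratio (17.7 to 128 CPM). The WT microglia-like value of Miat rests on 4 UMIs, with 2 of 4 animals at 0. The part of free RNA in the Miat difference was not tested. Sox2ot differed by -0.69 ± 0.33 (adjusted p = 0.123), and by -1.09 without Vehicle 1 (adjusted p = 0.00704). The summed oligodendrocyte marker level ranged from 17547 to 32451 CPM in WT, from 11153 to 31016 in Vehicle and from 30130.2 to 89862 in Vismodegib, and the part of this spread in these results was not tested. In astrocyte-like cells Meg3 was lower by 1.63 ± 0.34 on the log2 scale (adjusted p = 9.50e-04) and Miat higher by 2.18 ± 0.40 (adjusted p = 3.05e-04), 2 of 3 members beside 25% of genes. Their means there were 304 and 100.4 CPM for Meg3 and 37.0 and 157 CPM for Miat in WT and Vehicle. The microglia-like levels given above moved in the same directions, and Miat in astrocyte-like cells of Vehicle stood close to its microglia-like level of 128 CPM, and the part of free RNA in both differences was not tested. In fibroblast-like cells Meg3 fell by 1.19 ± 0.25 (adjusted p = 0.00132), 1 of 2 members beside 34.6% of genes. Malat1, the 1 member tested in microglia-like and endothelial-like cells, was not called by edgeR or DESeq2 and had no unadjusted p under 0.05, beside 20.1% and 24.1% of genes. Its difference in fibroblast-like cells was 0.78 ± 0.33 (adjusted p = 0.0729), which became 1.01 without Vehicle 5 (adjusted p = 0.0258) and 1.07 without WT 3 (0.0141). In astrocyte-like cells it was -0.30 ± 0.33, and -1.22 without Vehicle 2 (adjusted p = 7.48e-04).

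Between Vismodegib and Vehicle, no member was called outside the CGNP-like cells by edgeR's quasi-likelihood test with the filter on low counts and no block. In neuron-like cells 0 of 3 members was called beside 0% of 596 genes, none with an unadjusted p under 0.05 and none by DESeq2, with Meg3 at 0.20 ± 0.31 (95% interval -0.45 to 0.84) Snhg11 at -0.59 ± 0.37 (adjusted p = 0.939) and Malat1 at 0.69 ± 0.37 (adjusted p = 0.939). In oligodendrocyte-like cells 0 of 4 was called beside 3.92% of genes, 3 with an unadjusted p under 0.05 and none by DESeq2. There Sox2ot differed by 1.39 ± 0.45 (adjusted p = 0.0980), Miat by -1.29 ± 0.42 (adjusted p = 0.101) Malat1 by 0.85 ± 0.33 (adjusted p = 0.172) and Meg3 by -0.60 ± 0.31 (adjusted p = 0.369). With the library sets as a block, Sox2ot (adjusted p = 0.0188) and Miat (0.0158) passed. Their treated over untreated ratios were 2.27 and 2.43 for Sox2ot and 0.391 and 0.464 for Miat within the 2 sets. Without the filter on low counts both passed as well (0.00481 and 0.0360). Without Vehicle 1 the adjusted p of Sox2ot was 0.0194, without Vismodegib 4 0.00397, and without Vismodegib 2 that of Miat was 0.0492. In astrocyte-like cells 0 of 3 was called beside 0.952% of genes, 1 with an unadjusted p under 0.05, and DESeq2 called 1. That was Meg3, at 100.4 ± 44.9 CPM in 3 Vehicle and 301 ± 209.7 in 5 Vismodegib animals, a difference of 1.77 ± 0.51 (adjusted p = 0.114, and 0.0352 by DESeq2). Miat differed there by 0.73 ± 0.37 (adjusted p = 0.376) and Malat1 by 0.25 ± 0.43 (0.838). Malat1 was the member tested in microglia-like cells, with a difference of 0.85 ± 0.31 (adjusted p = 0.329), and in endothelial-like cells, with 1.26 ± 0.40 (adjusted p = 0.670). Both had an unadjusted p under 0.05 and neither was called by DESeq2, beside 0.111% and 0% of genes. In fibroblast-like cells 0 of 2 was called beside 0.642% of genes, with no unadjusted p under 0.05 and none by DESeq2, with Meg3 at 0.60 ± 0.28 (adjusted p = 0.415) and Malat1 at 0.54 ± 0.38 (0.576).

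Other long noncoding RNAs and genes around the members were read from 5 lists, whose counts over CGNP-like cells stand beside 13.8% of all genes called after vismodegib and 43.6% between Vehicle and WT. Of 4 tested genes listed around the Dlk1-Dio3 domain (Begain, Degs2, Wars and Yy1), 0 were called by edgeR's test over CGNP-like cells between Vismodegib and Vehicle (median log2 difference 0.02, and near 0 for all genes). Between Vehicle and WT 3 were, Begain (1.60) and Yy1 (0.69) higher and Degs2 (-1.88) lower (median 0.49, beside 0.05 for all genes). Dlk1 and Dio3 were not among the 4, so these counts do not describe the imprinted domain itself. Of 24 other long noncoding RNAs, 6 were called after vismodegib, 1 higher (1700020I14Rik, 0.48) and 5 lower, with Rmst (-0.81), Snhg4 (-0.66) and Snhg6 (-0.63) the largest and a median of -0.41. In Vehicle against WT 9 were higher, led by Rmst (3.19), Neat1 (2.88) and Airn (1.59), and 2 lower, Gm2694 (-1.03) and Dleu2 (-0.74), with a median of 0.28. Of 7 neighbouring and host genes, Sox2 fell by 1.04 on the log2 scale after vismodegib, the 1 called, and 5 were higher in Vehicle than in WT, with Sox2 (1.47), Ltbp3 (1.09) and Tpst2 (0.63) the largest. Of 15 genes of neuronal differentiation, 12 were higher after vismodegib, with Syt1 (2.06), Grin2b (1.71) and Mapt (1.51) the largest and a median of 0.93. In Vehicle against WT 8 were lower, led by Syt1 (-3.28), Stmn2 (-1.64) and Grin2b (-1.42), and Elavl4 (0.44) was higher. The higher Meg3 and Rian of treated CGNP-like cells thus stood beside higher mRNA of neuronal genes, whereas 5 of the 6 other long noncoding RNAs called were lower. Of 10 genes of nuclear RNA or RNA quality, 1 was lower after vismodegib (Fos), and between Vehicle and WT 3 were higher (Fos, Neat1 and Jun) and 3 lower (mt-Rnr2, mt-Nd2 and mt-Nd1). Mitochondrial RNA, 2.78% to 4.84% of UMIs in WT animals and 1.69% to 2.52% in Vehicle, moved with that comparison, and its part in the members' differences was not tested.

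Over the 150 sums of a class in an animal, the genes most like each member by Pearson's r of log2(CPM + 10), among 5526 genes, are given as a description, since the sums share libraries and classes. For Meg3 they were C1qtnf4 (0.80), Tmem59l (0.79) and Sncb (0.78), and for Rian the closest were Meg3 (0.70) and Caly (0.65). Those of Snhg11 were Kcnip4 (0.77), Meg3 (0.74) and Eno2 (0.715), and those of Miat were Elavl2 (0.81), Basp1 (0.77) and Apba2 (0.77). Malat1 had weaker matches, Sec62 (0.68), Ankrd12 (0.57) and Aplp2 (0.56). Sox2ot was most like Nkx2-2 (0.88), Plekhb1 (0.84) and Cnp (0.84), genes of the oligodendrocyte lineage.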

How the data were processed

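Raw UMI counts per gene and barcode, not normalized, were deposited by the authors for each of the 15 mice, before any filter on cell quality. Per the submitters' processing notes they used bcl2fastq 2.18, STAR 5.4b and Seurat 2.3.0 with mm10 and hg19. The study's methods add Drop-seq Tools, and tumor barcodes were kept by their mouse reads against a human spike-in. Their annotation version was not given in the sources used here. Total counts per sample ran from 2310474 to 5952919 in WT, from 4307404 to 17708677 in Vehicle and from 2601001 to 10922460 in Vismodegib.

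Cells below 500 UMIs or 500 genes were dropped, as were those over 5 SD above the median of their animal in UMIs, genes or mitochondrial share. Doublets were limited by these upper bounds alone. Tumor and WT cells were clustered separately (30 neighbours, Louvain resolution 0.8, best of 10 starts) without the members, the other long noncoding RNAs, the Dlk1-Dio3 genes and Sox2. Clusters were named from marker lists. The marker score minimum of 0.5 was set after the clusters were seen, and 8.22% of WT, 11.3% of Vehicle and 6.91% of Vismodegib cells stayed unnamed. A difference from the study can come from these rebuilt names. Counts were summed per animal and class (10 cells or more) and tested across all genes with edgeR's quasi-likelihood test (TMM, filterByExpr), Benjamini-Hochberg adjusted, called at adjusted p under 0.05. Stage and interaction fits had the animal as a block. Intervals, and the limit of 3 counts used for a count of 0, cover counting error or the spread between animals only. On simulated CGNP-like counts for Vismodegib against Vehicle with 12112 genes, 160 of 200 changed genes were recovered (80%), with 9 false calls. All changed genes had the same size of change, all genes the same dispersion, and no library sets were simulated. The share recovered in the real counts was not tested.

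The members and lists were chosen with earlier results of these data known. Members are named in each comparison, some that were not called by counts alone. Of each list, the 3 largest called genes per direction are named, and of each member the 3 genes most like it in pattern among those reaching 100 CPM in a class, except 1 that is not reported here. Python 3.11.15, numpy 2.4.6, scipy 1.17.1, pandas 2.3.3, igraph 0.11.9, R 4.3.3, edgeR 4.0.16, limma 3.58.1 and DESeq2 1.42.0 (an alternative) were used. The alternatives were normalization, filters, cell cuts, thinned sums, resolution, blocks and leaving out each animal. The set block, the joining of unnamed clusters and the equal stage weights were added after seeing the data.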

Additional observations from a re-analysis of the deposited data

Results flagged for a closer look

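Of 86 groups of values with at least 50 UMIs examined for 1 animal far from the others, 15 held one, where chance alone gives about 1 in 20 groups. Most were Malat1. In WT 3 it stood apart in GABAergic interneuron-like (17620.1 CPM, others 8378 to 10324), GABAergic progenitor-like (9011 CPM), Node B-like (7591 CPM), Node C-like (12154 CPM) and vascular fibroblast-like cells (19341 CPM). In Vismodegib 4 it stood apart in Node A-like (10731 CPM), Node B-like (8821 CPM), Node D-like (31901 CPM), endothelial-like (41262 CPM), neuron-like (55280.4 CPM) and vascular fibroblast-like cells (39179 CPM). The classes of one animal share a library, so these are not independent. For Meg3, WT 4 stood apart in progenitor-like cells (223 CPM, others 111 to 142). For Miat, WT 3 was low in interneuron-like cells (191 CPM, others 281 to 306). For Snhg11, Vismodegib 1 stood apart in Node D-like (50.3 CPM, others 6.90 to 18.3) and fibroblast-like cells (455 CPM, others 81.7 to 168).

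The log2 change from Node A-like to Node D-like cells differed between groups by an interaction term for Meg3, by 2.19 in Vehicle minus WT and by -0.94 in Vismodegib minus Vehicle, and for Malat1, by 0.42 in Vismodegib minus Vehicle (edgeR, Benjamini-Hochberg adjusted). The Meg3 term in Vismodegib minus Vehicle did not pass with DESeq2 (adjusted p = 0.0576). In edgeR's test it did not pass with thinned sums (0.101) or without Vismodegib 4 (0.0716). Both Meg3 terms rest on a mean Node A level below the microglia-like one in CPM.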

How the results depend on the processing

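Meg3 over CGNP-like cells after vismodegib was called under all 23 alternatives, with log2 differences from 1.97 to 2.34, and no called value changed sign under any alternative. Calls of members after vismodegib, 3 in all, went to 6 without the filter on low counts, to 1 with sums thinned to equal depth, to 5 with the replicate block and to 5 with a block for the library sets, and ranged from 2 to 4 leaving out one animal. The causes were not tested. Calls in Vehicle minus WT (19) ranged from 19 to 20 leaving out one animal, stage calls (45) from 43 to 46 and interaction calls (3) from 2 to 4. The Meg3 share of Vehicle Node D-like cells went from 43.8% to 26.5% when thinned, as fewer UMIs per cell were drawn. Gained calls were Sox2ot in oligodendrocyte-like cells (replicate block, adjusted p = 0.0201) and Malat1 there (0.0317), Miat there with the set block (0.0158), Meg3 in astrocyte-like cells without the filter (3.50e-04) and Snhg11 over CGNP-like cells at 4 SD (0.0267). Meg3 at Node A was lost with thinned sums (0.0520) and its treatment interaction likewise (0.101). The replicate numbers did not clearly pair the animals. Correlations of same-numbered deviations ran from -0.193 to 0.379 for the tumors, 3 of 5 over 0.1 and 2 of 5 fitting best with their own number. For Vehicle and WT they ran from -0.191 to 0.0100. Same-numbered Vehicle and Vismodegib libraries carried neighbouring serial numbers. Few UMIs limit Rian, Snhg11 and Sox2ot in the early stages.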

Other observations

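Barcodes with under 500 UMIs, left out as cells, held more Meg3 than the kept cells in 5 of 5 WT libraries (1251 to 3414 against 439 to 778 CPM), in 5 of 5 Vehicle libraries (378 to 4844 against 81.8 to 188) and in 4 of the 4 Vismodegib libraries with any UMI in them (749 to 1701 against 342 to 635). The Vehicle values of 3 libraries rest on few UMIs, with 11 Meg3 UMIs of 2271 in Vehicle 2, 1 of 440 in Vehicle 3 and 8 of 1817 in Vehicle 4, while Vehicle 1 (1042 CPM) and Vehicle 5 (378 CPM) gave 157 and 58. Malat1 was higher in them in 4 of 5, 5 of 5 and 4 of 4 libraries, and Snhg11 in 5 of 5 WT libraries (172 to 385 against 98.4 to 192 CPM) but in 2 of 5 Vehicle and 1 of 4 Vismodegib libraries. These 5831 WT, 1869 Vehicle and 1631 Vismodegib barcodes were given no cell class.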
